A study of Mus musculus with 6 samples.

Results

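The genes described here are 10 well-known targets of the hypoxia-inducible factors (HIFs) that belong neither to glycolysis nor to the vessel growth factors: Ddit4, Mxi1, Ndrg1, Ankrd37, Kdm3a, Bhlhe40, Higd1a, Hilpda, P4ha1 and Vldlr. They were chosen by name as known targets, with no threshold on a measured value. All 10 were found in the count table of 56941 genes by matching Ensembl identifiers to mouse symbols, and all 10 had enough counts to be tested among 18562 genes. The libraries came from primary mouse endothelial cells taken from lung with magnetic beads, with dead cells removed, and kept in serum-containing endothelial medium. A total of 3 libraries carried a floxed Fundc1 gene (genotype label FUNDC1-FLOX, titles FL) and 3 carried the knockout (genotype label FUNDC1-KO, titles EC-KO). The labels do not name the Cre driver, the age of the mice, the time in culture or the oxygen level, and the titles call the cells PAECs. Fundc1 encodes a mitophagy receptor of the outer mitochondrial membrane.

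When oxygen is plentiful, prolyl hydroxylases mark the HIF alpha subunits for destruction through the VHL protein. In hypoxia the alpha subunits escape, pair with ARNT and bind short promoter and enhancer elements whose core reads ACGTG or GCGTG. The targets outside glycolysis slow growth signalling, reshape chromatin and transcription, store fat, protect mitochondria and hydroxylate collagen, and endothelial cells are a classical site of this response. Many of these targets also answer to other signals, so a transcript level is not a reading of HIF activity.

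Of the 10 genes, 4 fell in the EC-KO libraries and 0 rose. Ddit4, Vldlr and Mxi1 were 3.42-fold, 3.13-fold and 2.40-fold lower, and Hilpda was 1.71-fold lower. The other 6 did not pass the test, and their log2 fold changes lay between -0.26 and 0.18. In all genes 27.1% were called in either direction, 13.5% lower and 13.5% higher, so the 4 of 10 that fell are a larger share than among all genes and the 0 of 10 that rose a smaller one, on a list of few genes. The median log2 fold change was -0.17 over the 10 genes and 0.03 over all genes tested. At an unadjusted p under 0.05, 0 of the 10 were higher and 4 lower, where among all genes 20.7% were higher and 19.9% lower, 40.6% in either direction, a share close to that of the 10 genes. DESeq2 and limma-voom each also called 0 higher and 4 lower. The groups did not overlap in the 4 genes that fell and overlapped in the other 6, and among all genes 45.4% had groups that did not overlap. Here and below a gene is called at an adjusted p under 0.05 in edgeR's quasi-likelihood test with Benjamini-Hochberg adjustment over all genes tested, CPM is a count scaled to a common library size with TMM factors, and every log2 fold change compares EC-KO with FL.

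**Figure D1:**
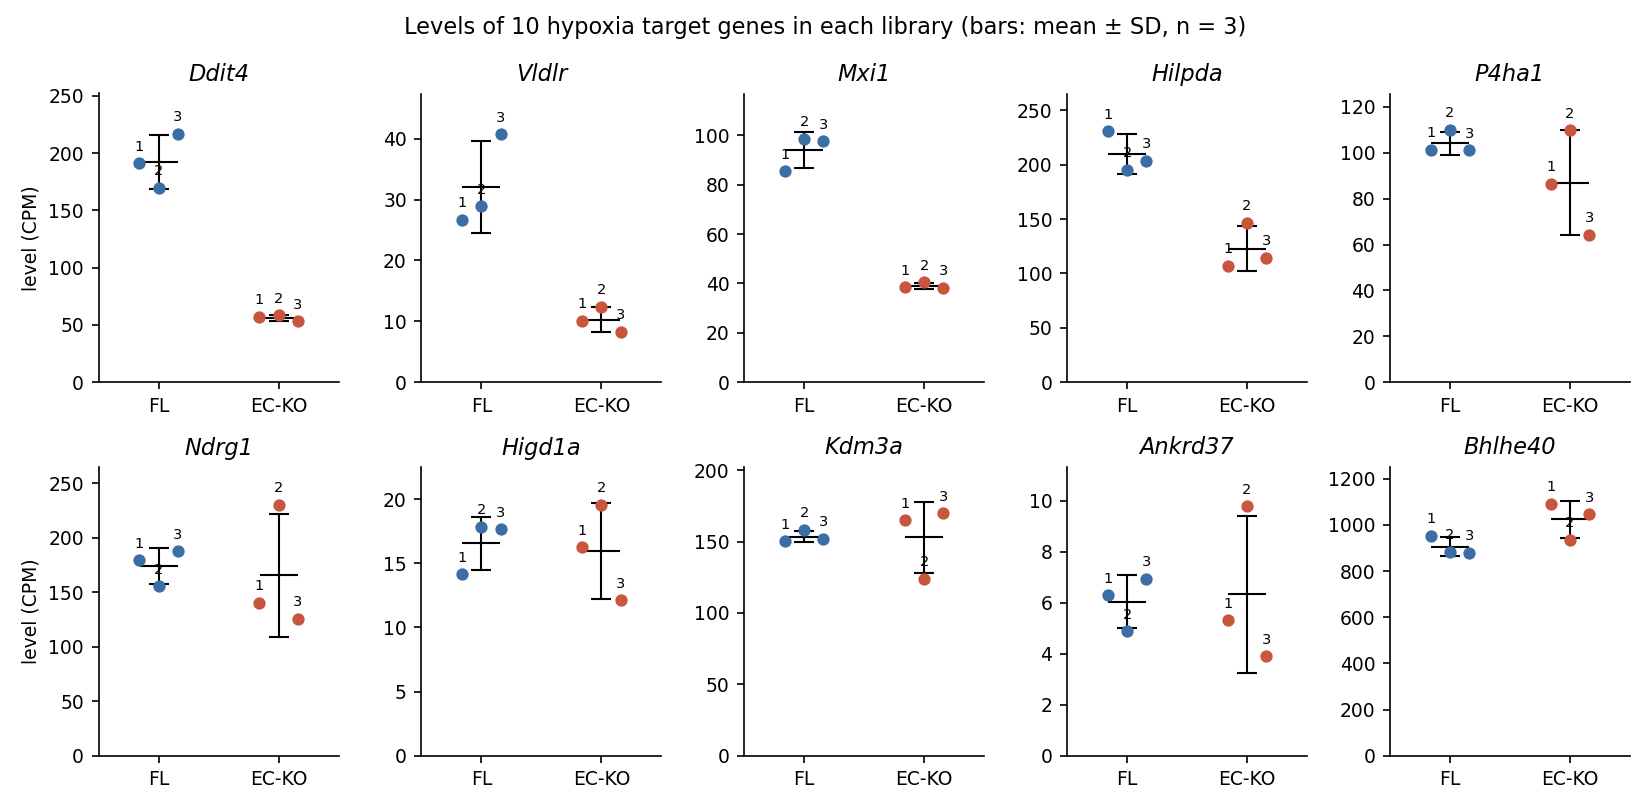
Level of each gene in CPM (y axis from 0) in the FL and EC-KO libraries, where points carry the replicate number and bars show the mean ± SD (n = 3 per group). The 3 EC-KO points of Ddit4, Vldlr, Mxi1 and Hilpda lie below all FL points, and in Ndrg1, Ankrd37 and Higd1a EC-KO 2 lies above every other library.

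**Figure D2:**
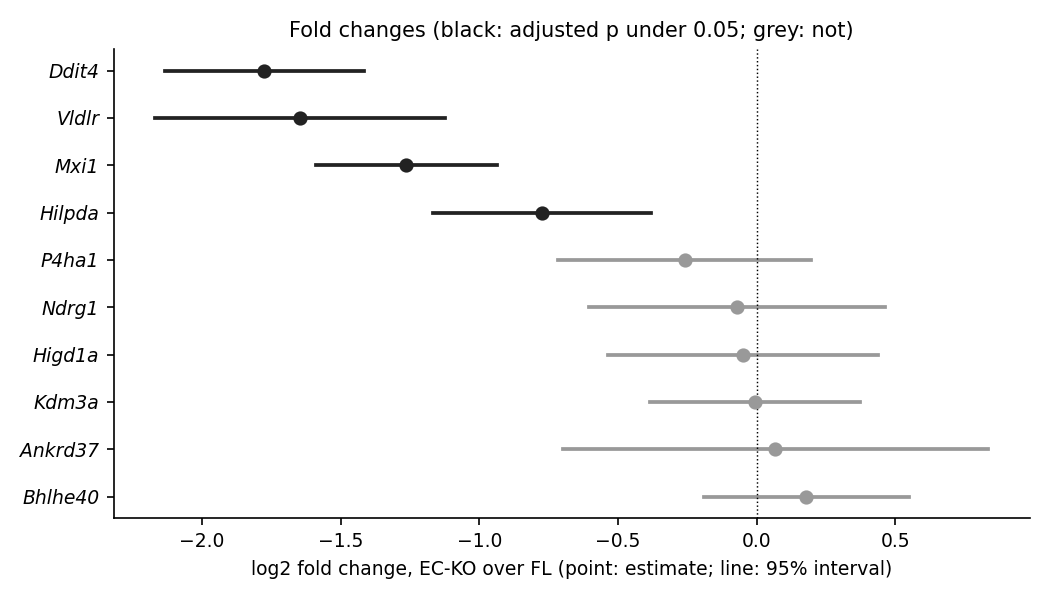
Log2 fold change of EC-KO over FL for the 10 genes (x axis), with points for the estimate, lines for the 95% interval, black for an adjusted p under 0.05 and grey otherwise. The intervals of Ddit4, Vldlr, Mxi1 and Hilpda lie below 0, and those of the other 6 genes span 0.

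Several facts of the libraries bear on these values. Depth was 26658998 to 34306962 counts per library. Fundc1 was at 25.1, 32.0 and 30.7 CPM across FL 1 to 3, against 14.1, 18.2 and 12.8 CPM across EC-KO 1 to 3, which is lower but not absent (-0.96 ± 0.19 SE, adjusted p = 0.00796 in edgeR). These are counts over the whole gene, and which exons were deleted is not stated in the labels. The marker counts that follow are calls, and among all genes 13.5% were called lower and 13.5% higher. Endothelial markers were present in every library and fell in 7 of 10 cases, with a summed level of 7030 to 9784 CPM in FL and 2787 to 5710 CPM in EC-KO. All 10 had a negative log2 fold change and groups that did not overlap. Epithelial markers rose in 10 of 10 cases (1692 to 4069 CPM in FL, 10272 to 15055 CPM in EC-KO), and fibroblast markers in 4 of 8 (370.1 to 483 and 686 to 1517 CPM). The epithelial sum was above the endothelial sum in every EC-KO library, though sums over unlike genes do not give shares of cells. Macrophage markers fell in 7 of 8 cases (3439 to 5330 CPM in FL, 2060 to 2816 CPM in EC-KO), neutrophil markers in 5 of 6 (973 to 2432 and 369.9 to 436 CPM) and smooth muscle and pericyte markers in 6 of 8 (554 to 804 and 279 to 406 CPM). The macrophage sums were mostly Lyz2, which was not called (means of 3170 CPM in FL and 2028 CPM in EC-KO). The other macrophage markers were from 2.85-fold (Cd68) to 7.52-fold (Mrc1) lower. Lymphocyte markers were called higher in 1 of 6 cases and lower in 1 (276 to 424 CPM in FL, 193 to 531 CPM in EC-KO), and markers of red cells and platelets rose in 4 of 7 (31.9 to 103 and 119 to 240.3 CPM). No marker on these lists was at 0 counts over all libraries. The part of these shifts in the changes of the hypoxia targets was not tested, and in such bulk samples fewer cells of a type and less RNA per cell cannot be told apart. EC-KO 2 stood apart from EC-KO 1 and 3 on the second principal component (-62.8 against 18 and 39, with 16.8% of the variance) and had the smallest loss of endothelial markers (mean log2 value relative to FL -0.56, against -1.60 and -1.60).

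Promoter sequence is shown for genes on both sides of the test, because the core of the HIF element was found on both sides. RefSeq promoter entries (GRCm38.p6) matched 8 of the 10 genes, with 14 start sites in all. The 250 bases before each start were searched on both strands for ACGTG and GCGTG. The second is also the core bound by the aryl hydrocarbon receptor, and the first lies inside the E-box CACGTG, which was absent from all 14 windows. At least 1 core was found in 8 of the 14 windows, and in 38.6% of the 32851 windows of all genes. Windows of 1 gene can overlap, and GC content was 41.6% to 77.2% in the 14 windows against a median of 52.4% in all. Among genes that fell, the Ddit4 window held 2 cores, 1 window of Mxi1 held 0 and its other 2 windows 1 each, the windows of Hilpda held 0 and 3, and both windows of Vldlr held 0. Among genes that were not called, the windows of Ankrd37, P4ha1 and Higd1a held 4, 3 and 2 cores, and 1 of 3 Kdm3a windows held 1. All 250 bases of the Higd1a window and of 1 Mxi1 window with a core are annotated exon, so those cores lie within exons. The Kdm3a core, 27 bases before its start, and 1 of the 4 Ankrd37 cores, 6 bases before its start, also lie in annotated exon. At least 2 cores were found in 16.7% of all windows, at least 3 in 6.58% and at least 4 in 2.58%. A match describes letters and does not show that a factor binds there, and absence from these windows says only that the letters are not in them. The stretches below run 5′ to 3′ along the gene, with each core in capitals (the core nearest the start of P4ha1 reads on the other strand). Those of Ddit4, Mxi1 and P4ha1 stop before exons of the GRCm38 annotation, and those of Hilpda include exon bases. The Ddit4 stretch (chr10:59951835-59952020, minus strand) ends 65 bases before the start, the Mxi1 stretch (chr19:53329163-53329412, plus strand) lies in an intron of the longer Mxi1 transcript before a second start site, and the P4ha1 stretch (chr10:59323046-59323295, plus strand) lies outside annotated genes.
Ddit4: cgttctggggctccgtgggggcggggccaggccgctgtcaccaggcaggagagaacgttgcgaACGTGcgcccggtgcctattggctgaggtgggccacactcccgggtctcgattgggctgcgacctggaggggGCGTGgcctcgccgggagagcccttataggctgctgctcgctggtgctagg
Mxi1: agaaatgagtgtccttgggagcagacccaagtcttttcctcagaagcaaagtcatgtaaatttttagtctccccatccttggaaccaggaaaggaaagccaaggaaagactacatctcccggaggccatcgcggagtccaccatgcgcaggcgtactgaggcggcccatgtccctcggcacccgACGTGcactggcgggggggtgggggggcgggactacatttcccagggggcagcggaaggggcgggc
P4ha1: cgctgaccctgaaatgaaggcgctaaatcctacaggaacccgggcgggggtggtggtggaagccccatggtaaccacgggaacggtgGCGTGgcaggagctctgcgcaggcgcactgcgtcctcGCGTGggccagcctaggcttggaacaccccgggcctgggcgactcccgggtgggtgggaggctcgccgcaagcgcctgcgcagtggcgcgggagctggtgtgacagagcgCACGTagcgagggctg
In Hilpda the cores lie near the second start site, in a window where 121 of the 250 bases are annotated Hilpda exon, so short stretches are given for 2 of the 3 cores and the core 8 bases before the start is not printed (chr6:29272507-29272527, 111 bases before that start, and chr6:29272575-29272595, 43 bases before it, plus strand).
Hilpda, distal core: cgcgagccGCGTGctttccgt
Hilpda, middle core: gccagcggACGTGccccaggg

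Of the regulators of growth, Ddit4 fell and Ndrg1 did not pass the test. Ddit4 encodes a stress-induced inhibitor of the growth kinase complex mTORC1 that acts through the TSC complex (chromosome 10, 59785491 to 59787656, minus strand, positions as printed in the deposited table, of a build that was not resolved). Its level was 191, 169.7 and 217 CPM across FL 1 to 3, against 57.2, 58.2 and 53.3 CPM across EC-KO 1 to 3. The lowest FL library was far above the highest EC-KO library, and the EC-KO libraries lay close together. Group means were 193 ± 23.6 and 56.2 ± 2.62 CPM (SD; n = 3 per group), which gave a log2 fold change of -1.77 ± 0.16 (SE, 95% interval -2.13 to -1.42, adjusted p = 0.000436 in edgeR). By p-value Ddit4 stood at rank 50 of the 18562 genes. Its paralog Ddit4l was nearly silent, at 0.847 CPM in FL and 0.618 CPM in EC-KO (-0.45, adjusted p = 0.486). Of the proteins through which Ddit4 works, the TSC subunit Tsc1 rose (1.195, adjusted p = 0.0107; 0.0532 without FL 3), and Tsc2 (-0.39, adjusted p = 0.133) and the GTPase Rheb (0.11, adjusted p = 0.710) did not pass the edgeR test.

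Ndrg1, a gene linked to growth arrest, differentiation and membrane trafficking, was at a similar mean level in both groups (chromosome 15, 66801167 to 66841489, minus strand). It was at 179, 155 and 188 CPM across FL 1 to 3, against 140.5, 231 and 126 CPM across EC-KO 1 to 3. EC-KO 2 was the highest of the 6 libraries and the other EC-KO libraries were the lowest of the 6. The log2 fold change was -0.07 ± 0.24 (SE, 95% interval -0.61 to 0.46, adjusted p = 0.844 in edgeR). Without EC-KO 2, a fit with 6740 calls over all genes against 5029 with all libraries, Ndrg1 was called lower (-0.42, adjusted p = 0.0495 in edgeR). Over all alternatives its adjusted p ran from 0.0495 to 0.992. The relatives Ndrg2 (0.46, adjusted p = 0.323), Ndrg3 (-0.08, adjusted p = 0.730) and Ndrg4 (0.73, adjusted p = 0.0997) did not pass the test.

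Among regulators of transcription and chromatin, Mxi1 fell, and Bhlhe40 and Kdm3a did not pass the test. Mxi1 pairs with MAX and opposes MYC at E-boxes (chromosome 19, 53298949 to 53364241, plus strand). Its level was 85.6, 98.7 and 97.7 CPM across FL 1 to 3, against 38.5, 40.6 and 38.3 CPM across EC-KO 1 to 3. No EC-KO library came near the FL range, and the EC-KO values were within a few CPM of each other. Group means were 94.0 ± 7.31 and 39.1 ± 1.26 CPM (SD; n = 3 per group), which gave a log2 fold change of -1.26 ± 0.14 (SE, 95% interval -1.59 to -0.94, adjusted p = 0.000835 in edgeR).

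The network around Mxi1 moved in both directions. The related MYC antagonists Mxd1 (-1.50, adjusted p = 0.00373) and Mxd4 (-1.005, adjusted p = 0.0285) fell, and Mxd3 was below 1 CPM in the mean of each group and was not called (-0.21, adjusted p = 0.724). Myc itself rose, from 141, 101 and 93.9 CPM across FL 1 to 3 up to 242, 224 and 212 CPM across EC-KO 1 to 3 (1.02 ± 0.19 SE, adjusted p = 0.00603 in edgeR). Every EC-KO library was above every FL library. Mnt, another MAX partner that opposes MYC, rose as well (1.30, adjusted p = 0.00855). The shared partner Max was called higher (0.46, adjusted p = 0.0464), but not in 7 of the 15 alternatives, among them those that dropped 1 of FL 1, FL 2, FL 3, EC-KO 1 and EC-KO 3 (adjusted p = 0.0706, 0.145, 0.219, 0.138 and 0.109). Mxd4 was not called when 1 of FL 2, FL 3, EC-KO 1 and EC-KO 3 was dropped (0.0710, 0.0958, 0.0943 and 0.0808). Mxd1 and Mxd4 were lowest in FL 1 among the FL libraries (548 and 93.9 CPM, against 934 and 1009 CPM for Mxd1 and 146 and 213 CPM for Mxd4), and FL 1 was also the lowest FL library for Mxi1, by a smaller margin. Neutrophil markers were lowest in FL 1 among FL as well (973 CPM summed), and their part in the falls of Mxd1 and Mxd4 was not tested.

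Bhlhe40, a circadian and stress-responsive repressor, was the most abundant of the 10 genes (chromosome 6, 108637590 to 108643886, plus strand). Levels were 952, 884 and 880.2 CPM across FL 1 to 3, against 1092, 936 and 1047 CPM across EC-KO 1 to 3. EC-KO 1 and 3 were above all FL libraries and EC-KO 2 was below FL 1. The log2 fold change was 0.18 ± 0.16 (SE, 95% interval -0.19 to 0.55, adjusted p = 0.445 in edgeR). Its paralog Bhlhe41 was at 19.0 and 18.4 CPM (-0.04, adjusted p = 0.903).

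Kdm3a, a histone demethylase that removes repressive methyl marks and itself uses oxygen, was at 150.4, 158 and 152 CPM across FL 1 to 3, against 165, 124 and 169.7 CPM across EC-KO 1 to 3 (chromosome 6, 71565956 to 71609974, minus strand). EC-KO 2 was the lowest of the 6 libraries, and EC-KO 1 and 3 were the highest. The log2 fold change was -0.01 ± 0.17 (SE, 95% interval -0.38 to 0.37, adjusted p = 0.981 in edgeR), and it was 0.071 with upper-quartile scaling and 0.093 with library-size scaling. Of its relatives, Jmjd1c rose (0.96, adjusted p = 0.0110; 0.0615 without FL 3) and Kdm3b did not pass the test (0.23, adjusted p = 0.389).

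Both genes of lipid handling fell. Hilpda encodes a small lipid-droplet protein that inhibits the triglyceride lipase ATGL, the product of Pnpla2 (chromosome 6, 29272487 to 29275445, plus strand). Its level was 230.5, 195 and 204 CPM across FL 1 to 3, against 107, 146 and 115 CPM across EC-KO 1 to 3. The groups did not overlap, and EC-KO 2 was the nearest to FL. Group means were 209.8 ± 18.4 and 123 ± 20.8 CPM (SD; n = 3 per group), which gave a log2 fold change of -0.77 ± 0.17 (SE, 95% interval -1.17 to -0.38, adjusted p = 0.0126 in edgeR). Without EC-KO 1 the fall was not called (-0.69, adjusted p = 0.0560), and over all alternatives the adjusted p ran from 0.000440 to 0.0560. G0s2, the other small inhibitor of the same lipase, fell from 80.5, 182 and 218 CPM across FL 1 to 3 down to 28.8, 28.3 and 24.8 CPM across EC-KO 1 to 3 (-2.55 ± 0.33 SE, adjusted p = 0.00130 in edgeR). All FL libraries were above all EC-KO libraries, with FL 1 lowest among FL. Neutrophil markers had their lowest FL value in FL 1 too, with mean log2 values relative to FL of -0.87, 0.56 and 0.31 across FL 1 to 3 and -2.06, -2.16 and -2.11 across EC-KO 1 to 3, beside -0.87, 0.30 and 0.57 and then -2.34, -2.36 and -2.55 for G0s2. Their part in the fall of G0s2 was not tested. The lipase gene Pnpla2 (-0.41, adjusted p = 0.106) and the droplet coat gene Plin2 (-0.61, adjusted p = 0.0824) did not pass the test.

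Vldlr encodes a receptor of triglyceride-rich lipoproteins and of reelin (chromosome 19, 27193884 to 27231631, plus strand). Its level was 26.7, 28.9 and 40.7 CPM across FL 1 to 3, against 10.1, 12.4 and 8.26 CPM across EC-KO 1 to 3. The lowest FL library had more than any EC-KO library, and FL 3 stood above the other FL libraries. Group means were 32.1 ± 7.54 and 10.3 ± 2.09 CPM (SD; n = 3 per group), which gave a log2 fold change of -1.65 ± 0.23 (SE, 95% interval -2.17 to -1.13, adjusted p = 0.00180 in edgeR). Relative to FL, Vldlr was at -0.24, -0.12 and 0.36 across FL 1 to 3 and at -1.60, -1.31 and -1.87 across EC-KO 1 to 3. The means of the endothelial markers were -0.19, -0.07 and 0.26, then -1.60, -0.56 and -1.60. Their part in the fall of Vldlr was not tested. Genes of reelin signalling are given beside Vldlr, and the differences between genes were not tested. Lrp8, the other reelin receptor, rose (1.11, adjusted p = 0.0214), but not when 1 of FL 2, FL 3, EC-KO 1 and EC-KO 3 was dropped (0.0582, 0.0712, 0.0502 and 0.0728). Reln, the gene of the ligand reelin, fell from 47.5, 69.6 and 92.9 CPM across FL 1 to 3 down to 20.6, 29.3 and 22.7 CPM across EC-KO 1 to 3 (-1.53 ± 0.26 SE, adjusted p = 0.00374 in edgeR).

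The mitochondrial and matrix targets were not called. Higd1a, a small protein of the inner mitochondrial membrane that associates with the respiratory chain, was at 14.1, 17.8 and 17.7 CPM across FL 1 to 3, against 16.3, 19.6 and 12.1 CPM across EC-KO 1 to 3 (chromosome 9, 121677629 to 121687428, minus strand). The highest and the lowest library were both EC-KO. The log2 fold change was -0.05 ± 0.22 (SE, 95% interval -0.54 to 0.44, adjusted p = 0.883 in edgeR), and it was 0.023 with upper-quartile and 0.025 with library-size scaling. Its count is uncertain, since 24.4% of the 50-base words of its transcripts also occur in other annotated genes, among them the antisense gene Gm47112, which shares 22.5% of its exon bases. The relatives Higd1b (-0.96, adjusted p = 0.0799) and Higd2a (0.04, adjusted p = 0.910) did not pass the test, and Higd1c had 0 counts in every library.

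P4ha1 encodes a catalytic subunit of the collagen prolyl hydroxylase (chromosome 10, 59159118 to 59209126, plus strand). It was at 101, 110.1 and 101 CPM across FL 1 to 3, against 86.6, 109.9 and 64.3 CPM across EC-KO 1 to 3. EC-KO 1 and 3 were below all FL libraries and EC-KO 2 was within the FL range. The log2 fold change was -0.26 ± 0.20 (SE, 95% interval -0.72 to 0.20, adjusted p = 0.364 in edgeR). Without EC-KO 2, a fit with 6740 calls over all genes against 5029 with all libraries, P4ha1 was called lower (-0.50, adjusted p = 0.0367 in edgeR). Over all alternatives its adjusted p ran from 0.0367 to 0.760. Of the same enzyme, the alternative subunit P4ha2 (-0.12, adjusted p = 0.817) and the partner P4hb (-0.27, adjusted p = 0.322) did not pass the test. P4ha3 was close to silent, with 1, 2 and 6 counts across FL 1 to 3 and 13, 20 and 17 counts across EC-KO 1 to 3, and was called higher (adjusted p = 0.0288), but not when 1 of FL 1, FL 2, EC-KO 1, EC-KO 2 and EC-KO 3 was dropped (0.0840, 0.108, 0.0633, 0.0607 and 0.0812).

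Ankrd37, a small ankyrin-repeat protein, had the fewest counts of the 10 genes, 126 to 312 per library (chromosome 8, 46449939 to 46458744, minus strand). It was at 6.29, 4.89 and 6.94 CPM across FL 1 to 3, against 5.31, 9.78 and 3.90 CPM across EC-KO 1 to 3. EC-KO 2 was the highest library and EC-KO 3 the lowest. The log2 fold change was 0.07 ± 0.34 (SE, 95% interval -0.70 to 0.83, adjusted p = 0.901 in edgeR), the widest of the 10 intervals. Exons of Lrp2bp on the opposite strand cover 22.7% of its exon bases and those of Ufsp2 another 3.70%, and no source used here states whether the counting was by strand.

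The spread between EC-KO libraries varied among the 10 genes. In all 6 genes that were not called, the SD over EC-KO libraries was larger than over FL libraries. In Ddit4, Mxi1 and Vldlr it was smaller, and in Hilpda it was slightly larger (20.8 against 18.4 CPM). An SD in CPM also follows the level, which was lower in EC-KO in these genes. As a percent of the mean, the SD in FL and EC-KO was 12.3% and 4.66% in Ddit4 and 7.77% and 3.23% in Mxi1. It was 23.5% and 20.4% in Vldlr, and 8.77% and 17.0% in Hilpda. The share of all genes with a larger SD in EC-KO was not computed. EC-KO 2 was the highest EC-KO library in 8 of the 10 genes and the lowest in the other 2, Kdm3a and Bhlhe40. EC-KO 3 was the lowest in 7. The gap to the other EC-KO libraries was wide in Ndrg1 and Ankrd37 and narrow in Ddit4 and Mxi1. Relative to FL, the mean log2 value of the 10 genes was -0.59, -0.36 and -0.76 in EC-KO 1, 2 and 3. Beside it, endothelial markers were at -1.60, -0.56 and -1.60 and epithelial markers at 2.25, 2.80 and 2.21. The part of these marker differences in the spread was not tested.

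Per exon length, the 10 genes kept the same order in both groups while the levels of 4 shifted. In RPKM, which is CPM divided by exon length in kilobases, FL libraries had 192 ± 8.62 for Bhlhe40, 190.2 ± 16.7 for Hilpda and 109.7 ± 13.4 for Ddit4 (SD, n = 3 each). Ndrg1 (26.4 ± 2.54), P4ha1 (25.3 ± 1.25), Kdm3a (18.7 ± 0.502) and Mxi1 (13.8 ± 1.07) followed. Higd1a (5.44 ± 0.687), Ankrd37 (3.93 ± 0.682) and Vldlr (3.19 ± 0.749) were lowest. In FL the means of Bhlhe40 and Hilpda, of Ndrg1 and P4ha1, and of Ankrd37 and Vldlr differed by less than the larger of the SDs. In EC-KO libraries the levels were 218 ± 17.1 RPKM for Bhlhe40, 111 ± 18.9 for Hilpda and 32.1 ± 1.49 for Ddit4. They were 25.1 ± 8.60 for Ndrg1, 21.1 ± 5.54 for P4ha1, 18.6 ± 3.04 for Kdm3a and 5.73 ± 0.185 RPKM for Mxi1. Higd1a was at 5.26 ± 1.23, Ankrd37 at 4.11 ± 1.997 and Vldlr at 1.02 ± 0.207 RPKM. In EC-KO the neighbours from Ddit4 to Kdm3a and from Mxi1 to Ankrd37 differed by less than the larger of their SDs. Hilpda thus lay beside Bhlhe40 in FL and well below it in EC-KO, and Mxi1 came down to the level of Higd1a.

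**Figure D3:**
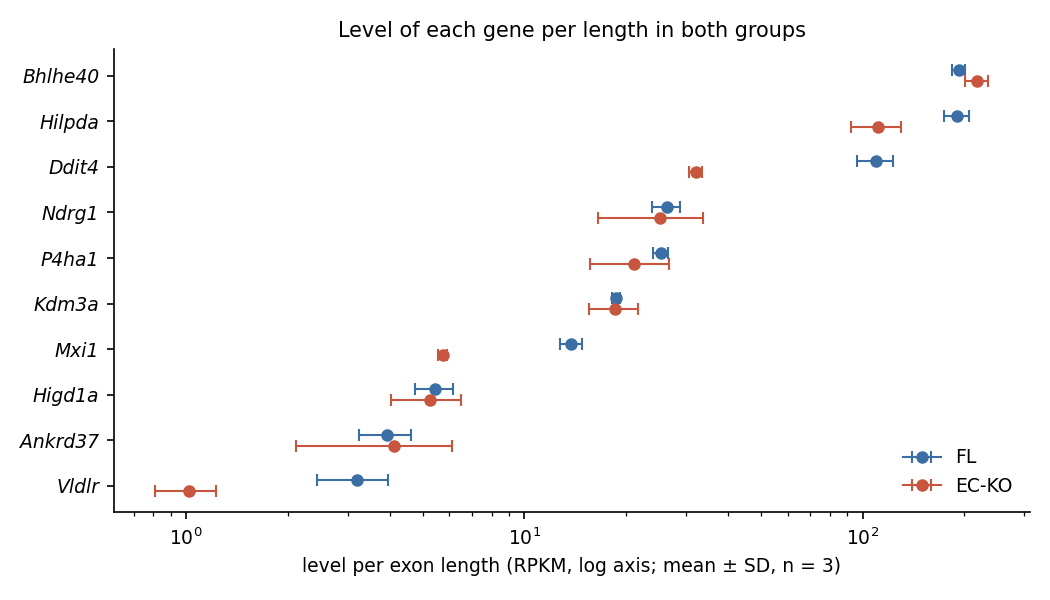
Level per exon length (RPKM, x axis on a log scale) of each gene in FL and EC-KO libraries, as mean ± SD (n = 3 per group). The order of the genes is the same in both groups, and the groups are apart for Hilpda, Ddit4, Mxi1 and Vldlr.

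**Figure D4:**
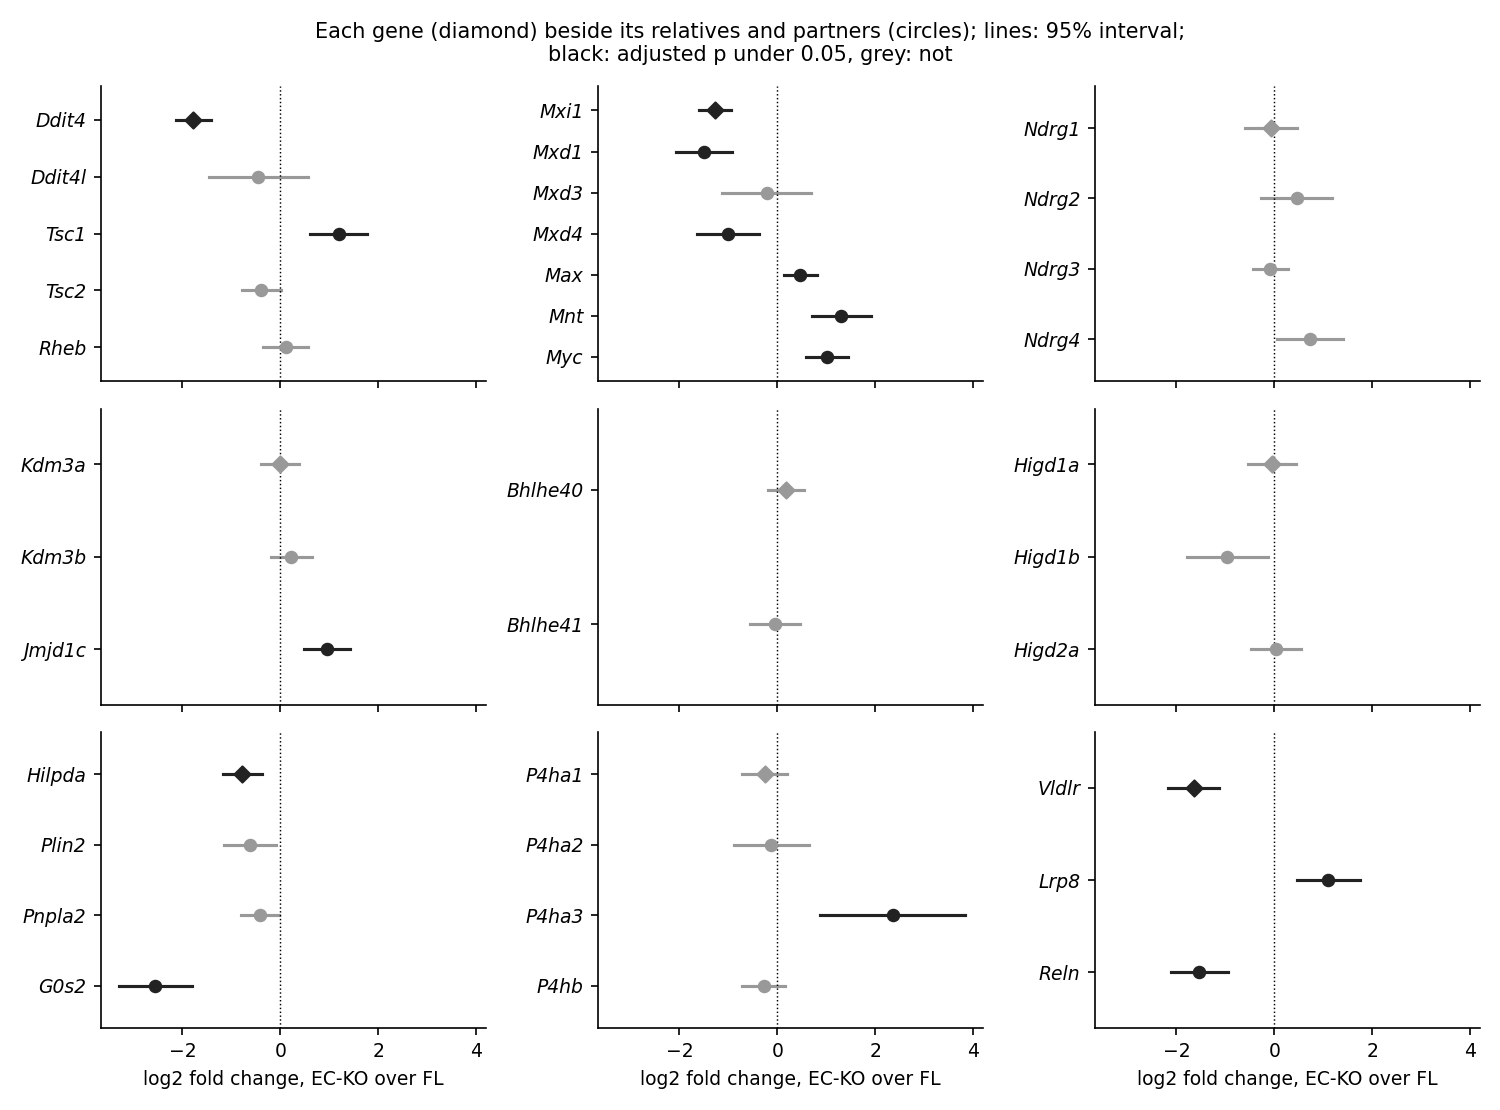
Log2 fold change of EC-KO over FL (x axes) of 9 of the genes (diamonds) beside relatives and partners (circles), with 95% intervals as lines, black for an adjusted p under 0.05 and grey otherwise. Mxd1 and Mxd4 fell with Mxi1 while Myc, Mnt and Max were called higher, G0s2 fell with Hilpda, and Lrp8 and Reln were called in opposite directions beside Vldlr.

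The other genes of the pathway were read from lists written with earlier results of these data known. P4ha2 and Bhlhe41 stand both among the relatives and among the other targets. In a list of 20 other HIF targets, 3 were lower and 1 higher (median log2 fold change -0.20). Among all genes 13.5% were called lower and 13.5% higher, so the 3 of 20 that fell are close to that share. The oxidative protein-folding enzyme Ero1a fell from 182, 162 and 167 CPM across FL 1 to 3 down to 64.9, 91.6 and 64.4 CPM across EC-KO 1 to 3 (-1.21 ± 0.18 SE, adjusted p = 0.00240 in edgeR). All FL libraries were above all EC-KO libraries. The mitophagy receptor Bnip3 (-0.99, adjusted p = 0.0223) and the collagen lysyl hydroxylase Plod1 (-0.97, adjusted p = 0.0289) were lower too, Bnip3 not when 1 of FL 3, EC-KO 1 and EC-KO 3 was dropped (0.0877, 0.0854 and 0.0692) and Plod1 not when 1 of FL 2, FL 3, EC-KO 1 and EC-KO 3 was dropped (0.0919, 0.0959, 0.108 and 0.0844). Lox, which cross-links collagen and is also made by fibroblasts, rose (1.74, adjusted p = 0.00774), with 106, 181 and 59.4 CPM in EC-KO 1, 2 and 3. Fibroblast markers had the same order of libraries, with means relative to FL of 1.26, 1.86 and 0.58, and their part in the rise of Lox was not tested.

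Among 11 HIF factors and oxygen sensors, 2 were lower and 2 higher (median -0.38), where among all genes 13.5% were called lower and 13.5% higher. Epas1, the HIF alpha subunit rich in endothelium, went from a mean of 4081 to 1969 CPM (-1.05, adjusted p = 0.0311), and was not called when 1 of FL 2, FL 3, EC-KO 1 and EC-KO 3 was dropped (0.0819, 0.106, 0.109 and 0.0952). EC-KO 2 was the highest EC-KO library for Epas1, at 2933 CPM, as it was for the endothelial markers. Hif1a, added outside the rule for named genes after its values were seen, was at 388, 331 and 317 CPM across FL 1 to 3, against 265, 263 and 260.3 CPM across EC-KO 1 to 3. The groups did not overlap, and the difference did not pass the test (-0.39, adjusted p = 0.0923 in edgeR). The prolyl hydroxylase Egln3, itself a HIF target, fell (-0.90, adjusted p = 0.0118). Hif1an, the hydroxylase that blocks coactivator binding to the HIF alpha subunits, rose (1.44, adjusted p = 0.00208). Vhl was called higher (0.69, adjusted p = 0.0322), but not in 6 of the 15 alternatives, among them those that dropped 1 of FL 1, FL 2, FL 3, EC-KO 1 and EC-KO 3 (0.0742, 0.117, 0.111, 0.122 and 0.0937). Of 16 glycolytic HIF targets that could be tested, 6 were lower and 1 higher (median -0.40), where among all genes 13.5% were called lower and 13.5% higher. The lactate exporter Slc16a3 had a log2 fold change of -3.38 and Eno1 of -1.29, against 1.41 for Hk2. Slc16a3 was at 198, 345 and 334 CPM across FL 1 to 3, and neutrophil markers were also lowest in FL 1 among FL. Hk2 was highest in EC-KO 2 (429 CPM), as epithelial markers were. The part of these markers in the changes of Slc16a3 and Hk2 was not tested. The lists were not tested against each other. The 20 other targets, the 11 factors and the 10 genes described here each had 4 calls, on lists of unlike size. The 16 glycolytic targets had 7 calls. Among all genes 27.1% were called.

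**Figure D5:**
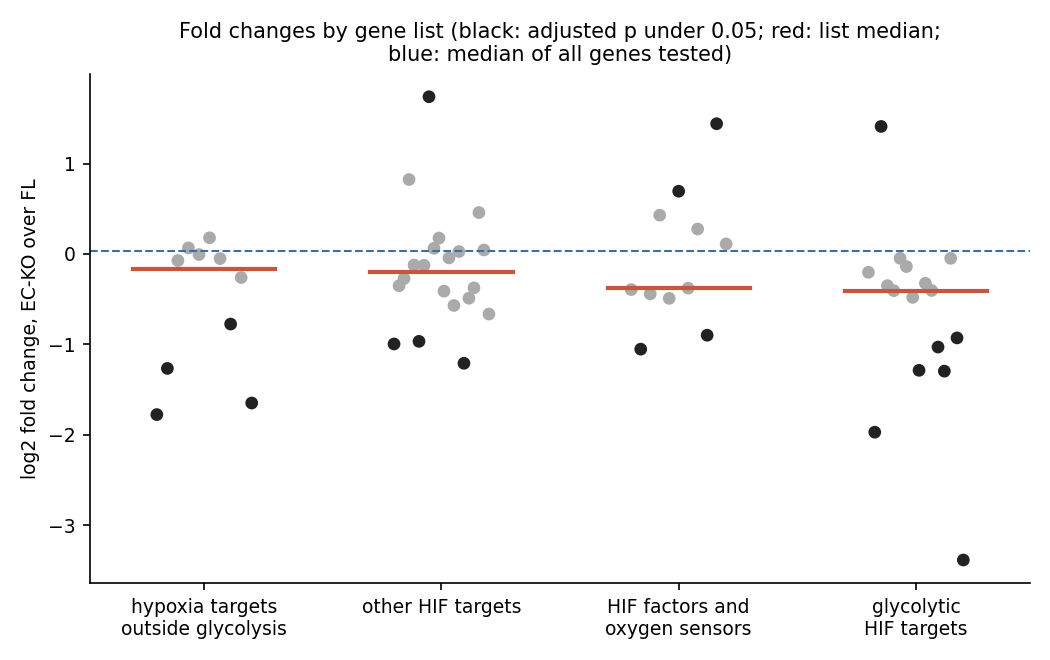
Log2 fold change of EC-KO over FL (y axis) of each tested gene in 4 lists, with black points for an adjusted p under 0.05, grey points otherwise, red lines for the list median and a blue dashed line for the median of all genes tested (0.03). The 4 list medians lie between -0.40 and -0.17, and the hypoxia targets outside glycolysis hold no point called above 0.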

How the data were processed

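RNA-seq libraries from 6 samples were used as raw counts per Ensembl gene, deposited by the authors as whole numbers with 1 column per library. Per the submitters' processing notes, STAR 2.7.10b, featureCounts 2.0.3 and mm10 were used, with no role or order given. For aligner settings, annotation and strand the answer is: not given in the sources used here. The counting summary, also deposited as counts, assigned 72.4% to 77.8% of alignments to genes and set aside alignments to several places (9.10% to 11.5%). Another 2 per-sample columns match no label and were not used. Symbols came from GENCODE by identifier (51948 of 56941 genes). Because just 2.90% of matched genes start at the same base as in GRCm38, positions are printed as the table gives them. Gene lengths for RPKM are the Length column of the deposited table, per the file headers. Aldoa had more than 1 identifier and was left out.

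From the counts, edgeR 4.0.16 (R 4.3.3) fitted EC-KO against FL with filterByExpr, TMM scaling and the robust quasi-likelihood test, two-sided, over 18562 genes. Each standard error was derived from the estimate and its F statistic, and 95% intervals use it with the test's degrees of freedom. The labels do not tie replicates to separate animals, and a p-value here reflects the spread among these libraries, which may be technical. Values relative to FL use log2(CPM + 0.5). The fit was also run on simulated counts with few changed genes and no shift in cell markers, so that run does not test it under the shifts seen here. Genes and lists were chosen with earlier results of these data known: named were all 10 targets, Fundc1, up to 4 called genes per direction of each other list and family members. Alternatives were 9 other settings and 6 fits that leave out 1 library. Figures were drawn with matplotlib 3.10.9.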

Additional observations from a re-analysis of the deposited data

How the results depend on the processing

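Over the 9 alternative settings, 4 of the 10 genes were called lower and 0 higher each time, and 3848 to 6191 genes were called in all, against 5029. With the replicate number as a block, a pairing that same-numbered libraries did not show (correlations of their deviations 0.0494, 0.0697 and -0.181), 3848 genes were called in all, with 4 of the 10 genes lower and 0 higher, and the fall of each kept its call. Leaving out 1 library gave 2547 to 6740 calls, 3 to 6 of the 10 genes lower and 0 higher. The count over all genes was 2626 without FL 2, 2547 without FL 3 and 2832 without EC-KO 1. Without EC-KO 2 it was 6740, and this was the fit with 6 of the 10 genes lower. Ddit4, Mxi1 and Vldlr were called lower in all 15 alternatives (log2 fold changes of -1.87 to -1.69, -1.36 to -1.18 and -1.84 to -1.47), and Hilpda in 14. Signs turned among uncalled genes. Ankrd37 was at -0.026 with limma-voom and at -0.0255 with the block. Kdm3a was at 0.071, 0.093 and 0.022 with upper-quartile scaling, library-size scaling and a filter of 1 CPM in 3 libraries. Higd1a was at 0.023 and 0.025 with those scalings. Against TMM, upper-quartile and library-size scaling raised the log2 fold change of the median gene by 0.074 and 0.087. The cause of the turned signs was not tested. Leaving out 1 library, Ndrg1 ran from -0.42 to 0.080, Ankrd37 from -0.42 to 0.31, Kdm3a from -0.10 to 0.093 and Higd1a from -0.25 to 0.10. Ankrd37 had the fewest counts of the 10 genes, 126 to 312 per library.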
